A study of Mus musculus with 12 samples.

Results

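The genes described here are the semaphorins, plexins and neuropilins, a family of axon guidance ligands and receptors, measured in cells sorted from mouse embryos at E12.5. Members were chosen by gene symbol: all 31 listed genes of the 3 families, whatever their signal, though with earlier results of these data known. Each had at least 1 probe set on the array, and 78 of its 45101 probe sets belonged to them. Of the 31 members, 28 could be tested among 12845 genes: 17 semaphorins, 9 plexins and both neuropilins. Sema3b, Sema3d and Sema5a did not pass the filter on low signal, their highest signals on any array and probe set being 132, 60 and 132.

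The embryos carried the transgene ePet-EYFP, a fusion of an enhancer of Pet-1 with the gene of a yellow fluorescent protein (YFP), which lights up serotonin neurons. All 4 groups carried it and had the same age. Neural tubes were cut at the pontine flexure into a rostral and a caudal domain, and flow cytometry divided each domain into YFP-positive and YFP-negative cells. The groups were rostral serotonin neurons (R+), rostral YFP-negative cells (R-), caudal serotonin neurons (C+) and YFP-negative cells of the caudal domain (C-), with 200000 cells for each of 3 biological replicates per group, on Affymetrix Mouse 430 2.0 arrays. The negative populations are mixtures of everything else in the dissected tissue. Whether the replicates are separate litters is not stated in the labels, and p-values thus reflect only the spread among these samples. The submitters' stated questions were which genes rostral and caudal serotonin neurons share and which differ at a stage of axon growth and migration.

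Semaphorins are secreted or membrane-bound cues that turn or stop growing axons and steer migrating neurons. Plexins are their signalling receptors, with a cytoplasmic domain that switches off small GTPases of the Ras and Rap type. Secreted class 3 semaphorins mostly reach plexins of the A class through a neuropilin as binding partner, whereas the transmembrane classes bind plexins directly. In the hindbrain, rostral serotonin neurons send axons mainly to the forebrain and caudal ones mainly to the spinal cord.

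The sorted populations matched their labels in a list of 8 serotonergic markers, whose summed signal lay at 59556 to 65937 in R+ and 4665 to 5039 in R-, and at 43215 to 47351 in C+ and 2228 to 3297 in C-. All 8 markers were higher in the YFP-positive cells of both domains. Other cell types moved with the sort. Summed signals of 9 progenitor markers lay at 19460 to 21043 in R+, 47381 to 59162 in R-, 20586 to 26317 in C+ and 48910 to 52936 in C-. Of 7 tested markers of cycling cells, 7 were lower in the YFP-positive cells of each domain, as were 6 of 7 glutamate neuron markers. Red blood cell markers also sorted with the negative cells, at 8708 to 15585 in R+, 45130 to 59155 in R-, 4804 to 8716 in C+ and 40507 to 44980 in C-. The part of this makeup in the differences given here was not tested. In bulk samples fewer cells of a type and less RNA per cell cannot be told apart. The ratio of beta-actin probe sets at the 3' and 5' ends, a sign of RNA quality, was 3.38 ± 0.61 in the rostral arrays and 5.77 ± 1.31 in the caudal arrays (SD, n = 6 each), and median signals of the arrays lay between 93 and 121.

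Promoter sequences came from RefSeq (GRCm38.p6), from which 37 start sites of 26 of the 31 members were used. The member windows leave out a chromosome that the counts over all windows include. Printed are the 250 bases before the start for Nrp2, whose signal differed most between the serotonin populations, and for the 3 members that were lower in both of them. All 4 windows lie on the plus strand, Nrp2 at chr1:62703067-62703316, Plxna2 at chr1:194619579-194619828, Sema3c at chr5:17574566-17574815 and Sema3g at chr14:31217623-31217872. Letters in capitals mark matches on either strand to GATAA, the core of GATA factor sites, to CCGGAA, the core of ETS factor sites, or to TAATTA, a homeodomain core. These letter patterns do not overlap one another.
Nrp2: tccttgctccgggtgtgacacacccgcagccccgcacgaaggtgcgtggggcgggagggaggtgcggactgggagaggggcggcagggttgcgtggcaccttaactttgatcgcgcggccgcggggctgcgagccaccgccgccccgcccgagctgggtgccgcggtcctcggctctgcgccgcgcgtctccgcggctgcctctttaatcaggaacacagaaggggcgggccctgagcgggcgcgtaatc
Plxna2: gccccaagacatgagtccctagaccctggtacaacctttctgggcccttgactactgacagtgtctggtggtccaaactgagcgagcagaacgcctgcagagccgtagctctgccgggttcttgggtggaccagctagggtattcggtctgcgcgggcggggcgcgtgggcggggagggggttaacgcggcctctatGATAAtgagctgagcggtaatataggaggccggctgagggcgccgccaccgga
Sema3c: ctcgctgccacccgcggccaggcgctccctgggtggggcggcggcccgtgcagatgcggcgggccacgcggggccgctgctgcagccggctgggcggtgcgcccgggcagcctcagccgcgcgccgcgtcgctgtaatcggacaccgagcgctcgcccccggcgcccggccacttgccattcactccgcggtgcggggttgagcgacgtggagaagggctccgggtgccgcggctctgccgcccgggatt
Sema3g: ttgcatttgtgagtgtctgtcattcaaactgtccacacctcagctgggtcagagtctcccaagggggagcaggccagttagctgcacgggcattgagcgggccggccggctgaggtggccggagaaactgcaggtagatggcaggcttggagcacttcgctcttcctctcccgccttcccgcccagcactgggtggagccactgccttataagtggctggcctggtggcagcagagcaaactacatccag
Plxna2 had 1 GATAA, 53 bases before the start. The windows of Nrp2, Sema3c and Sema3g held none of these letters. GATAA was found in 4 of the 37 member windows and in 22.6% of all 32851 windows of this length. CCGGAA was found in 4 of 37 and in 12.03% of all, and TAATTA in 0 of 37 and 4.84% of all. The second of 2 start sites of Sema6d, at chr2:124653331-124653580 on the plus strand, held 2 GATAA, at 250 and 110 bases before the start, and the first held none.

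The first question was which guidance genes set serotonin neurons apart from the YFP-negative cells beside them. Nrp2 was the 1 member that rose in R+ over R-, and in the caudal domain it fell. Plxna2, Sema3c and Sema3g fell in the serotonin neurons of both domains. However, Sema3c and Sema3g passed the filter on low signal only through the negative cells, which favoured this direction in advance. Sema3a and Sema5b fell in R+, Sema6d and Sema3e fell in C+, and Sema4d rose in C+. Of the members lower in both populations, Plxna2 alone did not owe its passing of the filter to the negative cells. In the main fit 0 members were higher in both, and Nrp2 was called in opposite directions. Sema4f was called higher in both where another probe set rule was used, as given below.

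Differences below are on the log2(signal + 10) scale with the SE of the fit, the group named first minus the other, and signals are means ± SD over 3 arrays on the linear scale of the deposited values. A member was called at an adjusted p under 0.05 (limma, Benjamini-Hochberg over all 12845 genes). Between R+ and R-, 1 of 28 members was higher and 5 were lower, 21.4% in all, where 12.2% of all genes were called. Of all genes, 4.34% were higher and 7.86% lower. Between C+ and C-, 1 was higher and 6 were lower, 25% in all, where 13.1% of all genes were called, 5.71% higher and 7.39% lower. The lower members of both comparisons include Sema3c and Sema3g, whose direction the filter favoured. The median difference of the members was 0.06 in the rostral and -0.27 in the caudal comparison, beside -0.01 and -0.04 over all genes. Without an adjustment, 8 and 11 members had p under 0.05. Arrays with the same replicate number deviated together, a pairing that the fit behind these counts did not use. With the number as a block the counts became 3 higher and 6 lower in the rostral comparison, and 4 higher and 9 lower in the caudal one. Each of the 13 calls was kept, where 20.9% and 22.8% of all genes were called. Leaving out R- replicate 1, C+ replicate 1 or C+ replicate 3 raised the members higher in C+ from 1 to 2, through Plxna3, Sema6a and Sema3f in turn, and without C+ replicate 1 Sema4f was also called higher in R+. All 3 arrays lay above those of the other group for 5 members and below for 7 in R+ against R-, where 12.1% of all genes lay above and 16.4% below. In C+ against C- this held for 2 and 7 members, where 12.3% of all genes lay above and 15.1% below. Both counts of 7 again include Sema3c and Sema3g.

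**Figure D1:**
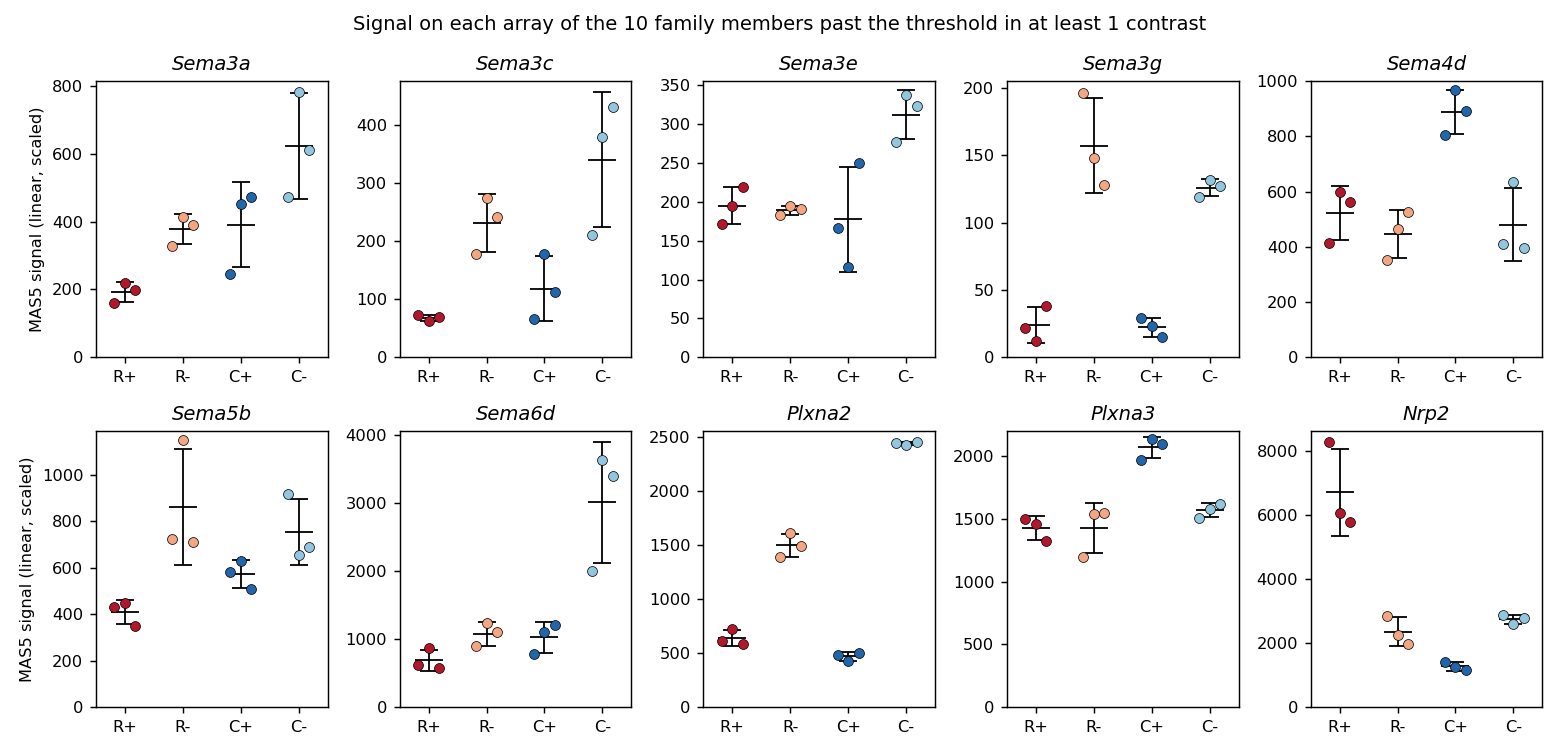
MAS5 signal (linear, scaled) of the 10 members called in at least 1 of 5 contrasts, with a point for each of 3 arrays in R+, R-, C+ and C-, and a bar and whiskers for the mean and SD. Each panel has its own axis from 0. Nrp2 reaches 5799 to 8284 in R+ and 1150 to 1408 in C+, and Plxna2 stands at 2423 to 2455 in C-.

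Among the secreted class 3 ligands, which repel many axons, 4 of the 5 tested were called in at least 1 of the 5 contrasts. The same held for 10 of the 28 members and 21.8% of all genes. Each call between a positive and a negative population was toward lower signal in serotonin neurons. For Sema3c and Sema3g the filter favoured that direction, which leaves Sema3a in R+ and Sema3e in C+ as the calls free of this limit. Sema3a, the founding growth cone collapsing factor, had signals of 160, 218 and 197 in R+, 329, 414 and 390 in R-, 247, 452 and 474 in C+, and 472, 784 and 612 in C-. All R+ arrays lay below all others, and C+ overlapped C-. The difference was -0.95 ± 0.26 in R+ against R- (adjusted p = 0.0244), and -0.68 ± 0.26 in C+ against C- (adjusted p = 0.105, or 0.00939 with the block). Leaving out R+ replicate 1 or 3, or R- replicate 2 or 3, took the rostral call away, at adjusted p of 0.0573 to 0.0971.

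Sema3c, a ligand for both neuropilins and for plexin D1, had 73, 62 and 69 in R+, 178, 275 and 241 in R-, 65, 178 and 112 in C+, and 210, 379 and 432 in C-. In neither domain did the positive and negative arrays overlap, and R+ stayed below the array-wide median of 107. Only 2 C+ arrays exceeded it, fewer than the 3 the filter asked for, so Sema3c passed only through the negative cells. Sema3c fell by 1.61 ± 0.36 in the rostral (adjusted p = 0.00756) and by 1.49 ± 0.36 in the caudal comparison (adjusted p = 0.0119). The caudal call was lost without C- replicate 2 (adjusted p = 0.0511) or 3 (0.0693). Sema3g, which binds neuropilin 2, was dim, at 22, 12 and 38 in R+, 196, 148 and 128 in R-, 29, 23 and 15 in C+, and 119, 132 and 127 in C-. All positive arrays lay below all negative ones, a direction that the filter favoured, since Sema3g passed it only through the negative cells. The differences were -2.35 ± 0.49 (adjusted p = 0.00463) and -2.10 ± 0.49 (adjusted p = 0.00949), and without replicate 1 of all groups the adjusted p rose to 0.0735 and 0.0562.

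Sema3e, which acts on plexin D1 without a neuropilin, had 172, 194 and 219 in R+, 183, 194 and 191 in R-, 166, 116 and 250 in C+, and 277, 337 and 323 in C-. The C- arrays lay above the other 9, while R+ and R- overlapped. Its caudal difference of -0.84 ± 0.26 passed narrowly (adjusted p = 0.0451), and 8 of 24 alternative settings kept the call. Leaving out any single array other than C+ replicate 3 ended it, at adjusted p of 0.051 to 0.205. In the rostral comparison the difference was 0.03 ± 0.26. Sema3f, the neuropilin 2 ligand, was not called, with a caudal difference of 0.79 ± 0.31 (adjusted p = 0.119, or 0.0218 with the block) and a rostral one of 0.19 ± 0.31. One C+ array, at 768, stood above the other 2 at 381 and 288.

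Endothelial cells also use class 3 semaphorins, neuropilins and plexin D1. Of 10 endothelial markers, 7 were tested, of which 0 were called in R+ against R- and 2 were lower in C+ against C-. Their summed signal lay at 904 to 1250 in R+, 1206 to 1316 in R-, 1085 to 1248 in C+ and 1572 to 2450 in C-. No marker was at 0 on all arrays of a group, but Pecam1 and Tie1 exceeded the array-wide median on no array. The part of endothelial cells in these results was not tested.

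Of the 12 transmembrane and membrane-anchored semaphorins tested, 3 were called between a positive and a negative population. Sema4d, which signals through plexin B1, was the 1 semaphorin called higher in serotonin neurons in the main fit. Its signals were 413, 597 and 561 in R+, 354, 463 and 525 in R-, 805, 967 and 894 in C+, and 412, 634 and 396 in C-. All C+ arrays lay above the other 9, whose groups overlapped. Sema4d rose by 0.90 ± 0.22 in C+ over C- (1.87-fold, adjusted p = 0.0112), and the rostral difference was 0.22 ± 0.22 (adjusted p = 0.631). The caudal call was lost without C+ replicate 2 (adjusted p = 0.0534) or C- replicate 3 (0.0613).

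Sema5b, a transmembrane semaphorin with thrombospondin repeats that repels axons, had 431, 448 and 350 in R+, 725, 1151 and 713 in R-, 581, 629 and 510 in C+, and 917, 657 and 689 in C-. R+ was lowest, with no array above any of another group. Sema5b fell by 1.03 ± 0.21 in R+ against R- (2.04-fold, adjusted p = 0.0035), a call kept in 24 of 24 alternatives. In the caudal domain the groups did not overlap either, but the difference of -0.38 ± 0.21 did not pass (adjusted p = 0.287).

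Sema6d, a ligand of plexin A1, had 624, 861 and 576 in R+, 892, 1243 and 1102 in R-, 773, 1099 and 1203 in C+, and 1996, 3643 and 3398 in C-. Every C- array lay above the other 9. Sema6d fell by 1.52 ± 0.24 in C+ against C- (2.87-fold, adjusted p = 0.000493). In the rostral domain the difference was -0.65 ± 0.24 (adjusted p = 0.103, or 0.00579 with the block), with R+ below R- on all arrays. The caudal call was lost only when all probe sets of the gene were averaged (-0.64, adjusted p = 0.232), and the other probe sets, described below, were dim.

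The remaining class 4, 6 and 7 members were bright enough to measure but were not called. Sema4c, a ligand of plexin B2, had 1969, 1563 and 1511 in R+, 2164, 1138 and 1561 in R-, 1986, 1532 and 1107 in C+, and 2011, 1338 and 1352 in C-, with differences of 0.09 ± 0.25 in the rostral and -0.04 ± 0.25 in the caudal comparison. Sema4g had 1413, 1212 and 1005 in R+, 1259, 928 and 874 in R-, 1875, 1105 and 1022 in C+, and 2327, 1370 and 1715 in C-, with 0.25 ± 0.25 and -0.45 ± 0.25, the second called with the block (adjusted p = 0.0227). For Sema6c, at 2241, 1918 and 1943 in R+, 1898, 1420 and 1363 in R-, 2010, 1348 and 1349 in C+, and 2559, 1420 and 2600 in C-, the differences were 0.39 ± 0.23 and -0.45 ± 0.23, the second again called with the block (adjusted p = 0.0475).
All 3 of these had overlapping groups in C+ against C-. Sema7a, a membrane-anchored ligand of plexin C1, had 966, 829 and 927 in R+, 983, 666 and 1304 in R-, 717, 771 and 791 in C+, and 1256, 663 and 1101 in C-, and differed by -0.07 ± 0.24 and -0.35 ± 0.24. Sema6a, a ligand of plexins A2 and A4, was at 452, 694 and 655 in C+ and 320, 448 and 464 in C-, a difference of 0.53 ± 0.21 (adjusted p = 0.118, or 0.0182 with the block). Sema4a, Sema4b and Sema6b, which lay between 206 and 1048, had no call in either comparison under any setting tried.

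Sema4f depended on the probe set. The one used had 487, 441 and 415 in R+, 317, 256 and 279 in R-, 651, 407 and 359 in C+, and 454, 310 and 319 in C-. R+ lay above R- on every array, a difference of 0.64 ± 0.23 (adjusted p = 0.0903, or 0.0120 with the block). The other kept probe set, whose name ends in _x_at because some of its probes may match other transcripts, had 1264, 1496 and 1149 in R+, 654, 762 and 604 in R-, 1828, 1785 and 1719 in C+, and 1062, 1145 and 1017 in C-. On that probe set the positive cells were above the negative cells in both domains, by 0.94 (adjusted p = 0.00041) and 0.72 (adjusted p = 0.00318). R- fell below C- there by 0.67 (adjusted p = 0.02). These values are from the setting in which a gene was represented by its probe set of highest arithmetic mean. With probe sets averaged, Sema4f was called higher in R+ by 0.79 (adjusted p = 0.00346) and in C+ by 0.54 (adjusted p = 0.0342).

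**Figure D2:**
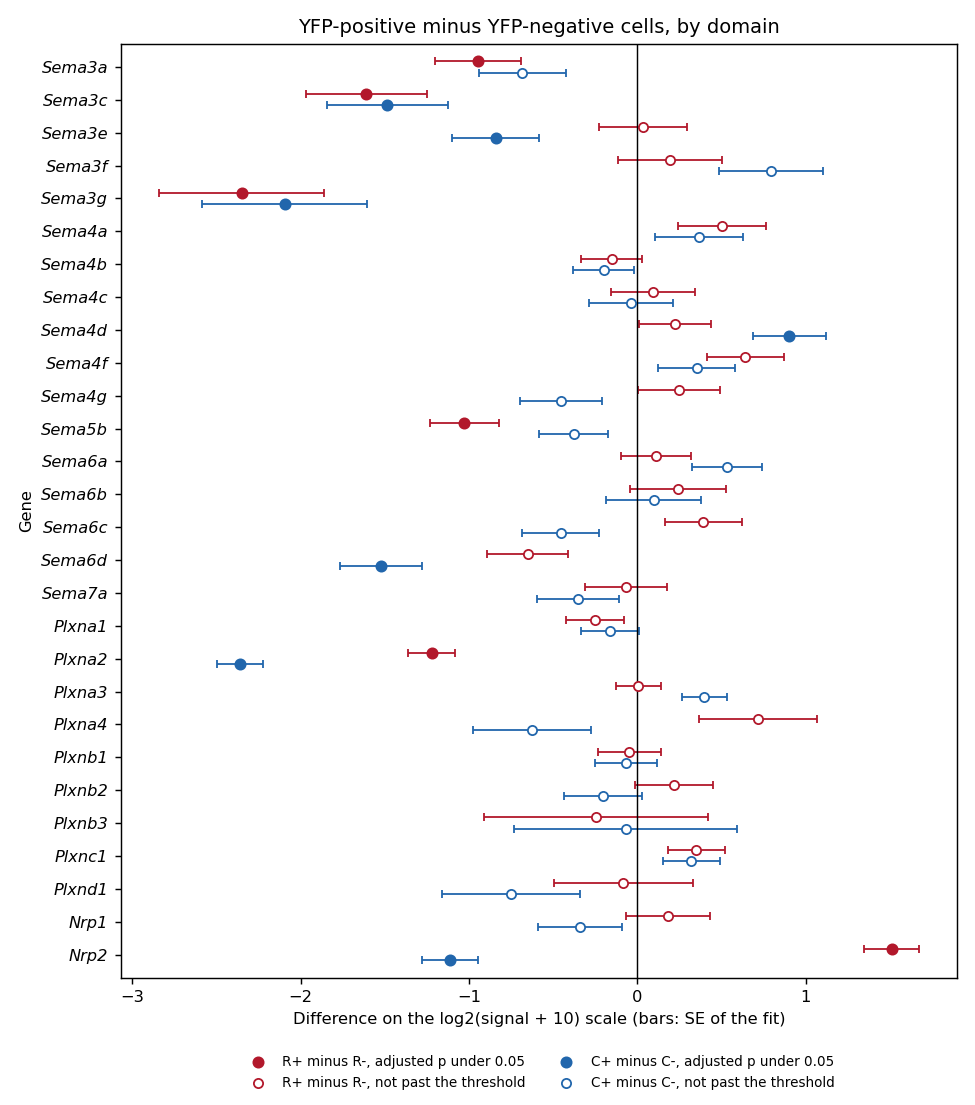
Difference between YFP-positive and YFP-negative cells on the log2(signal + 10) scale for the 28 tested members, rostral (red) and caudal (blue), with the SE of the fit as bars and filled points at an adjusted p under 0.05. Nrp2 has 1.51 in rostral and -1.11 in caudal cells, and Plxna2 has -1.22 and -2.36.

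Among the 9 plexins tested, Plxna2 alone was called between a positive and a negative population, and it fell in both domains. Plexin A2 is a receptor for Sema6a and, together with neuropilins, for class 3 ligands. Its signals were 607, 719 and 585 in R+, 1390, 1606 and 1492 in R-, 482, 424 and 500 in C+, and 2442, 2423 and 2455 in C-. The 4 groups did not overlap, C+ being lowest, followed by R+, R- and C-. Plxna2 fell by 1.22 ± 0.14 in R+ against R- (2.33-fold, adjusted p = 2.21e-05) and by 2.36 ± 0.14 in C+ against C- (5.13-fold, adjusted p = 2.09e-08). Both calls were kept in 24 of 24 alternatives, at adjusted p of up to 0.0398 and 5e-05.

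The other plexins with bright probe sets were not called in these comparisons, which does not show that their levels were equal. Plxna1, a receptor for Sema3a with neuropilin 1 and for Sema6d, had 2348, 2002 and 1856 in R+, 2536, 2454 and 2369 in R-, 2337, 1850 and 1740 in C+, and 2828, 1760 and 2117 in C-, with differences of -0.25 ± 0.17 and -0.16 ± 0.17 in the rostral and caudal comparison. Plxnb1, the Sema4d receptor, had 2507, 2130 and 2032 in R+, 2444, 2318 and 2120 in R-, 2918, 1958 and 1819 in C+, and 2799, 1861 and 2299 in C-, with -0.05 ± 0.19 (95% interval -0.45 to 0.35) and -0.07 ± 0.19 (-0.47 to 0.33). Plxnb2, the Sema4c receptor, had 2267, 2269 and 2881 in R+, 2465, 1506 and 2538 in R-, 2820, 1781 and 1653 in C+, and 2779, 1906 and 2401 in C-, with 0.22 ± 0.23 and -0.20 ± 0.23.
These 3 plexins had groups that overlapped in both comparisons, except for Plxna1 in the rostral one, where all R+ arrays lay below R-. Plxnc1, the Sema7a receptor, had 904, 1315 and 1063 in R+, 766, 953 and 831 in R-, 880, 1103 and 1047 in C+, and 717, 892 and 811 in C-. The differences were 0.35 ± 0.17 in R+ against R- (adjusted p = 0.235, or 0.0366 with the block) and 0.32 ± 0.17 in C+ against C-. Plxna3, which pairs with neuropilin 2 for Sema3f, was at 1974, 2137 and 2102 in C+ and 1512, 1582 and 1618 in C-. Its C+ arrays were all higher, but the difference of 0.40 ± 0.13 missed the threshold (adjusted p = 0.0678, or 0.0191 with the block). Plxna4, Plxnb3 and Plxnd1 were dim, at 89 to 353, 26 to 211 and 65 to 267, with SEs of 0.35, 0.66 and 0.41. None was called in the main fit. With probe sets averaged Plxna4 was called lower in C+ (-1.02, adjusted p = 0.0324). Without replicate 1 of all groups Plxna4 was called higher in R+ (1.04, adjusted p = 0.0491).

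The neuropilins, binding partners of class 3 semaphorins and of VEGF, gave unlike results. Nrp2, the Sema3f partner, had 8284, 6066 and 5799 in R+, 2846, 2246 and 1956 in R-, 1408, 1242 and 1150 in C+, and 2875, 2588 and 2772 in C-. Every R+ array was above every other array, and every C+ array was below every other array. The means were 6716 ± 1364, 2349 ± 454, 1267 ± 131 and 2745 ± 145. Nrp2 rose by 1.51 ± 0.17 in R+ over R- (2.85-fold, adjusted p = 1.73e-05) and fell by 1.11 ± 0.17 in C+ against C- (2.16-fold, adjusted p = 0.000276). Both calls were kept in 24 of 24 alternatives, with the highest adjusted p at 0.000393 and 0.0152.

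Nrp1, the Sema3a partner, had 1396, 1671 and 1074 in R+, 1409, 1282 and 943 in R-, 1041, 1345 and 1404 in C+, and 2121, 1818 and 1045 in C-. The groups overlapped throughout. Its differences of 0.18 ± 0.25 (95% interval -0.35 to 0.72) and -0.34 ± 0.25 (-0.88 to 0.19) did not pass, with adjusted p of 0.758 and 0.449.

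The second question was how the rostral and caudal serotonin neurons differ, and whether the YFP-negative cells differ likewise. Nrp2 was the 1 member higher in R+ than in C+. Sema3a, Sema4d and Plxna3 were lower in R+. In the negative cells Sema6d and Plxna2 were lower in R-, and no member was higher. Between R+ and C+ 14.3% of members were called, where 7.32% of all genes were, 2.83% higher and 4.48% lower. Between R- and C- 7.14% of members were called, where 2.83% of all genes were, 1.05% higher and 1.78% lower, and 5 members had an unadjusted p under 0.05. The member medians were 0.06 and -0.12, beside -0.05 and -0.04 over all genes. In R+ against C+ all 3 arrays lay above the other group for 3 members and below for 4 (10.1% and 15.9% of all genes), and in R- against C- for 0 and 6 (8.39% and 10.8%).

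These comparisons set rostral arrays against caudal ones, and the beta-actin ratio did not overlap between them (2.64 to 4.39 and 4.52 to 7.69). Domain and ratio therefore cannot be told apart, and a call lost with the covariate does not show which of them it followed. With that ratio as a covariate the count of members lower in R+ went from 3 to 0. Both members lower in R-, Plxna2 (adjusted p = 0.111) and Sema6d, were lost with it and Sema4g was called in their place (-1.22, adjusted p = 0.0488), where 1.68% of all genes were called in each comparison, and the part of RNA quality in them was not tested. The 3 members lower in R+ also became 0 without any one of the 3 R+ arrays, C+ replicate 2 or C+ replicate 3, and 1 without R- replicate 3 or C- replicate 3. The 2 lower in R- became 1 without R- replicate 3.

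Nrp2 stood at 5.22 times the C+ level in R+, a difference of 2.38 ± 0.17 (adjusted p = 4.49e-07) kept in 24 of 24 alternatives. In the negative cells its difference was -0.24 ± 0.17 (95% interval -0.59 to 0.11, adjusted p = 0.538). For Sema3a the difference between R+ and C+ was -0.95 ± 0.26 (adjusted p = 0.0390, or 0.597 with the covariate). In the negative cells it was -0.68 ± 0.26 (adjusted p = 0.214, or 0.0213 with the block), with R- below C- on all arrays.

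The Sema4d difference between R+ and C+ was -0.77 ± 0.22 (adjusted p = 0.0458), a call that 9 of 24 alternatives kept and that leaving out any array but R- replicate 1, C+ replicate 1 or C- replicate 2 ended. Plxna3 had 1501, 1459 and 1321 in R+ and 1199, 1543 and 1544 in R-, all below the C+ signals. Its difference of -0.54 ± 0.13 in R+ against C+ (adjusted p = 0.0268) was kept in 15 of 24, and was -0.41 with the covariate (adjusted p = 0.371).
The call on Plxna3 thus varied with the setting while its direction did not. Sema6d fell by 1.44 ± 0.24 in R- against C- (2.71-fold, adjusted p = 0.0033), kept in 22 of 24, and was -1.02 with the covariate (adjusted p = 0.0988). Between R+ and C+ it differed by -0.57 ± 0.24 (adjusted p = 0.172, or 0.0153 with the block). Plxna2 fell by 0.70 ± 0.14 in R- against C- (adjusted p = 0.0103), and its difference of 0.43 ± 0.14 in R+ against C+ did not pass (adjusted p = 0.0716, or 0.0210 with the block). With probe sets averaged, the difference between R+ and C+ was 1.07 and was called (adjusted p = 0.0448).
For Plxna2 the call in the negative cells was lost in 5 of 24 alternatives, among them without R- replicate 3 (adjusted p = 0.0515) and without replicate 1 of all groups (0.0535). Sema4g, with R- below C- on all arrays, had a difference of -0.80 ± 0.25 that did not pass (adjusted p = 0.113) and that the block called (0.00149).

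**Figure D3:**
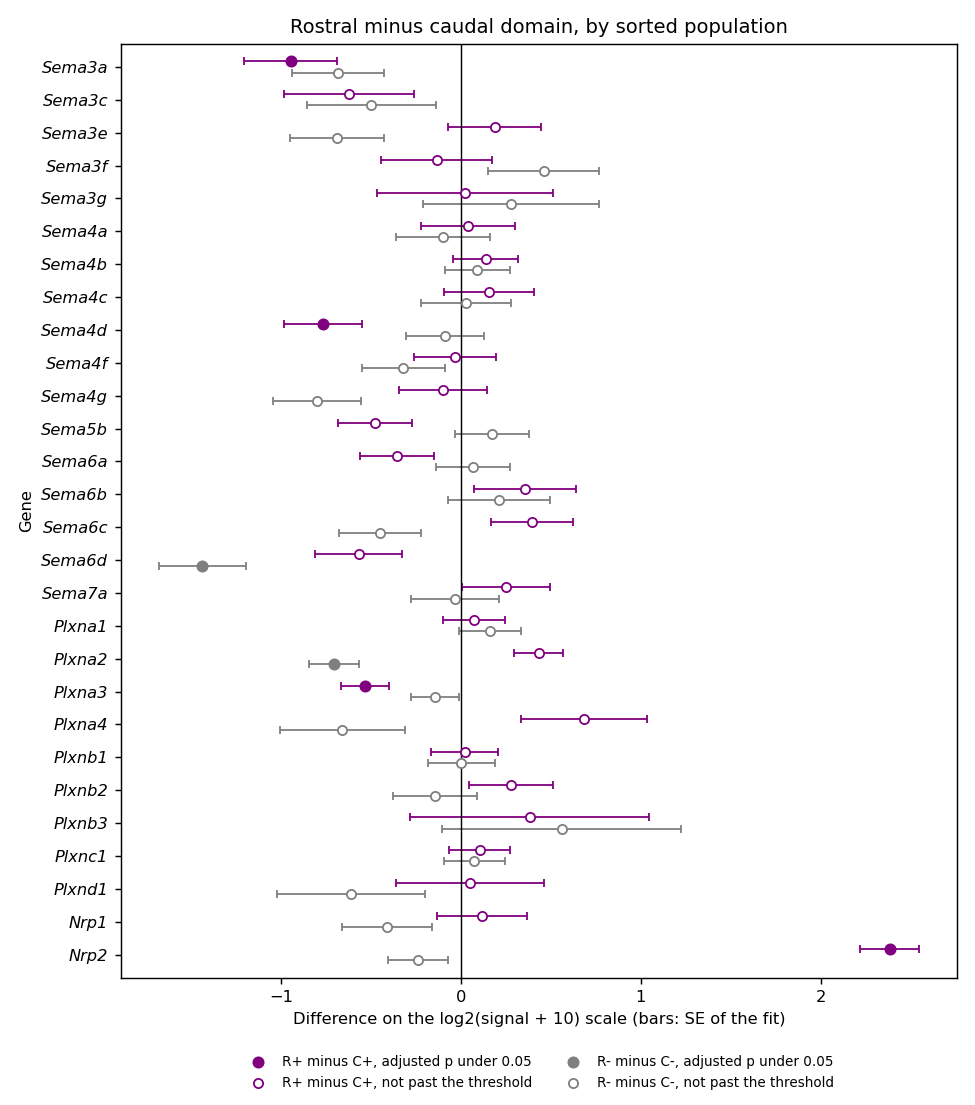
Difference between rostral and caudal cells on the log2(signal + 10) scale for the 28 tested members, YFP-positive (purple) and YFP-negative (grey), with the SE of the fit as bars and filled points at an adjusted p under 0.05. Nrp2 stands at 2.38 in YFP-positive cells and -0.24 in YFP-negative cells, and Sema6d has -1.44 in YFP-negative cells.

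The difference of differences, (R+ minus R-) minus (C+ minus C-), asked whether the step from negative to positive cells differed between the domains. Of the 28 members 2 were called, both toward a more positive rostral step, 7.14% where 1.17% of all genes were called, 0.490% toward the rostral and 0.677% toward the caudal side. Nrp2 had 2.62 ± 0.23 (adjusted p = 2.04e-05), kept in all 23 alternatives that could be run. For Plxna2, which fell in both domains, it was 1.14 ± 0.19 (adjusted p = 0.00724), the caudal fall being the larger one. That call was lost when each array was scaled to 1 median (1.04, adjusted p = 0.0773) and when probe sets were averaged (1.44, adjusted p = 0.170). Of the other 26 members, 6 had an unadjusted p under 0.05. Sema6d had 0.87 ± 0.34 (adjusted p = 0.512, or 0.0422 with the block), and Plxna4, which was dim, 1.34 ± 0.49 (adjusted p = 0.418). For Sema4d, called only in the caudal comparison, the test gave -0.68 ± 0.31 (adjusted p = 0.660), and for Sema5b, called only in the rostral one, -0.65 ± 0.29 (adjusted p = 0.657). The tests therefore do not show that the step from negative to positive cells of these 2 genes differs between domains.

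Several members had more than 1 probe set, which read different stretches of the same gene. For 12 called results the gene had further probe sets past the filter. Of their 26 values 24 had the same sign as the one used, 10 were called in the same direction and 0 in the opposite one. For Nrp2 the other probe sets gave 1.98 and 1.63 in R+ against R-, both called, and -0.96 (adjusted p = 0.0302) and -0.76 (adjusted p = 0.322) in C+ against C-. The 3 other probe sets of Plxna2 gave -2.24, -2.08 and -3.01 in the caudal comparison, all called, and -1.06, -1.01 and -0.62 in the rostral one, of which the first was called. In R- against C-, however, they gave -0.55, -0.30 and 0.07 with no call. The 2 other probe sets of Sema6d were dim and gave -0.22 and -0.17 in C+ against C-, neither called, so the Sema6d result rests on 1 probe set. The second probe set of Sema5b gave -0.67 in R+ against R- (adjusted p = 0.138), and that of Plxna3 -0.12 in R+ against C+ (adjusted p = 0.928).

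**Figure D4:**
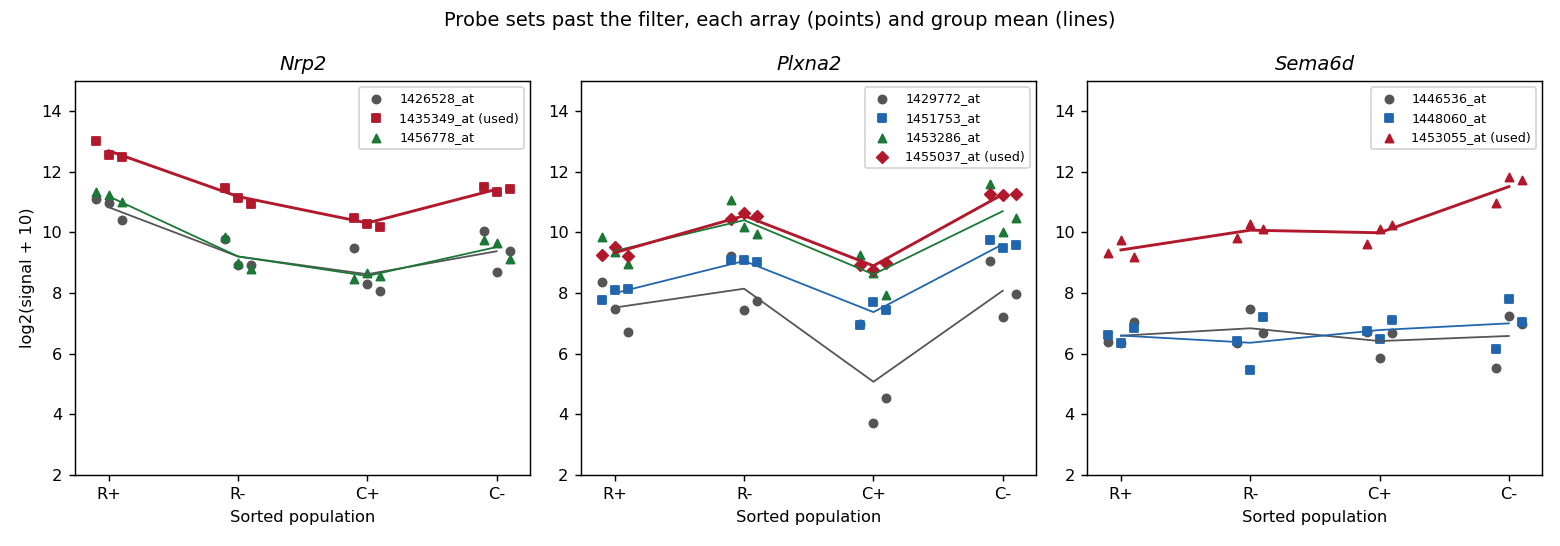
log2(signal + 10) of each probe set past the filter for Nrp2, Plxna2 and Sema6d, with points for the 3 arrays of each population and lines through the group means. The probe set used for each gene is red. For Nrp2 the lines run alike. For Plxna2 each line is lower in positive than in negative cells of a domain, but 1 probe set gave 0.07 in R- against C-, where the one used gave -0.70. For Sema6d the high C- signal appears on 1 of 3 probe sets.

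Co-receptors and other ligands of neuropilins and plexins were taken from a list of 21 genes, 17 of them tested. In R+ against R- 2 were higher and 1 was lower, and in C+ against C- 1 was higher and 2 were lower, where 12.2% and 13.1% of all genes were called. L1cam, an adhesion molecule that associates with neuropilin 1, rose by 0.81 ± 0.17 in the rostral (adjusted p = 0.004) and by 0.70 ± 0.17 in the caudal comparison (adjusted p = 0.00976), with rostral mean signals of 6447 in R+ and 3675 in R-, and caudal ones of 9801 in C+ and 6024 in C-. Chl1, its close relative, rose in R+ by 0.80 ± 0.17 (adjusted p = 0.00527). Cntn2, a contactin that marks early growing axons, moved furthest, falling by 2.88 ± 0.17 in R+ against R- and by 3.39 ± 0.17 in C+ against C- (7.36-fold and 10.4-fold, adjusted p = 3.52e-08 and 3.68e-09). Kdr, a VEGF receptor, fell in C+ by 1.14 ± 0.32 (adjusted p = 0.0302), with means of 145 in C+ and 319 in C- beside endothelial marker sums that were also lower in C+ than in C-. In both R+ against C+ and R- against C- 0 were higher and 1 was lower, L1cam in each case (-0.60 ± 0.17 and -0.71 ± 0.17, adjusted p = 0.0415 and 0.0325), where 7.32% and 2.83% of all genes were called. In the difference of differences 0 were called by limma, beside 1.17% of all genes, and 3 had an unadjusted p under 0.05. Averaging probe sets ended all 4 L1cam calls, and the caudal call was also lost without C- replicate 2. The Kdr call was lost without C+ replicate 1 or C- replicate 3. Of the L1cam calls between domains, the one in positive cells was lost with the covariate and without R+ replicate 2 or 3, any C+ array or C- replicate 3. The one in negative cells was lost without R- replicate 2 or 3, C- replicate 1 or 3, or C+ replicate 2.

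Of 37 cytoplasmic mediators of semaphorin signalling, 33 were tested. In R+ against R- 0 were higher and 2 lower, and in C+ against C- 1 was higher and 2 were lower, again beside 12.2% and 13.1% of all genes. Rnd2, a small GTPase, fell by 1.36 ± 0.12 in R+ (adjusted p = 2.52e-06) and by 1.31 ± 0.12 in C+ (adjusted p = 3.2e-06). Rnd3, a relative of it, fell by 0.39 ± 0.12 in the rostral (adjusted p = 0.0427) and by 1.29 ± 0.12 in the caudal comparison (adjusted p = 2.13e-06), with rostral mean signals of 7143 in R+ and 9413 in R-, and caudal ones of 2613 in C+ and 6412 in C-. For Rnd3 the rostral call was kept in 9 of 24 alternatives and lost without any single array but R- replicate 3 or C+ replicate 1, and the caudal call was kept in all 24. Its difference of differences was 0.90 ± 0.17 (adjusted p = 0.0117), the 1 call of the list there, beside 1.17% of all genes. Rap1b, a GTPase of the type that plexins switch off, rose in C+ by 0.47 ± 0.15 (adjusted p = 0.0495), kept in 9 of 24 and lost without any single array but C+ replicate 1 or C- replicate 2.

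Between R+ and C+ 1 cytoplasmic gene was higher, Rnd3 by 1.45 ± 0.12 (adjusted p = 1.7e-06), and 4 were lower, where 7.32% of all genes were called. These were Dpysl4, of the family of collapsin response mediators (-0.47 ± 0.11), Mical3, of a family of oxidoreductases that act on actin (-0.76 ± 0.18), the GTPase Rac1 (-0.56 ± 0.14) and the protein kinase Rock1 (-0.70 ± 0.20), at adjusted p of 0.0166 to 0.0477. With the beta-actin ratio as a covariate 0 of the 4 were called, and without C+ replicate 2 or R+ replicate 3 also 0. Leaving out R+ replicate 1 or C+ replicate 3 left 1 of the 4, and leaving out R+ replicate 2 left 2. Without C+ replicate 1 the count of higher genes rose from 1 to 4. In R- against C- Rnd3 was higher by 0.54 ± 0.12 (adjusted p = 0.0201) and Dpysl4 fell by 0.53 ± 0.11 (adjusted p = 0.0135), the 2 calls there beside 2.83% of all genes, and with the covariate neither was called. The Rnd3 call there was lost without R- replicate 1 or 2 or any C- array, and the Dpysl4 call without R- replicate 3 or C- replicate 1 or 3.

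The other cell types of the tissue gave values beside the caudal results. Markers of the floor plate, the ventral midline that makes guidance cues, had summed signals of 11477 to 21211 in C+ and 5399 to 5479 in C-, where 5 of 5 tested were higher in C+, and of 8616 to 11927 in R+ and 11096 to 11894 in R-, where 1 of 5 was lower. Markers of mesenchyme, meninges and pericytes summed to 745 to 1032 in R+, 1597 to 2127 in R-, 3171 to 3576 in C+ and 3652 to 4553 in C-. GABA and glycine neuron markers summed to 1288 to 1762 in R+, 10460 to 13587 in R-, 3535 to 4384 in C+ and 14215 to 16923 in C-, with 6 of 6 tested lower in R+ and 5 of 6 lower in C+. The part of these cells in the differences of Sema4d, Sema6d, Plxna2 and Nrp2 was not tested.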

How the data were processed

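RNA of the 12 samples was hybridized to Affymetrix Mouse 430 2.0 arrays after 1 round of amplification, per the labels' protocols. As deposited, the values are MAS5 signal, a linear intensity, per the submitters' processing notes, with version and settings not given in the sources used for this work. Since the mean without the lowest and highest 2% was 500 on every array, the authors had scaled the arrays alike. Detection calls were not used here. A probe set was kept if at least 3 arrays exceeded 107, the median over the table. Genes were read from the kept probe set of highest average log2 signal, and from one named _x_at only in the absence of others, which left 12845 genes. Symbols came from GEO's platform annotation, which can be old: 34945 probe sets had 1 symbol, 932 several and 9160 none.

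One mean per group was fitted to log2(signal + 10) over all 12 arrays with limma 3.58.1 in R 4.3.3, with eBayes and a trend, and 5 two-sided contrasts were adjusted by the Benjamini-Hochberg method at 0.05. The offset shrinks the fold changes of dim genes, and the number of arrays limits the precision. The procedure was tested on simulated data. Members, lists and rules were chosen with earlier results of these data known. Members called or with a group mean over 1000 are described in full, and of each list up to 4 genes per direction and contrast. The list genes Rhod, Pak1 and Rock2 were not analysed here. Arrays with the same replicate number deviated together (correlations of 0.118 to 0.520 in 18 of 18 pairs, against -0.398 to 0.273 in 36 others). The number was therefore taken to pair samples in the alternative with a block. The main fit, and each call given without mention of the block, did not use this pairing. Columns within a group correlated at 0.942 to 0.970 and none were identical. Alternatives changed the offset, filter, normalization, probe set rule, spread model, arrays fitted, replicate block, beta-actin covariate and each array in turn.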

Additional observations from a re-analysis of the deposited data

Results flagged for a closer look

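In 3 genes the step from YFP-negative to YFP-positive cells differed between the domains in the test of that difference (limma, adjusted p under 0.05). For Nrp2 the rostral step was 1.51 and the caudal step -1.11, a difference of 2.62 ± 0.23 (adjusted p = 2.04e-05), with all 3 R+ arrays above R- and all 3 C+ arrays below C-. For Plxna2 the steps were -1.22 and -2.36, a difference of 1.14 ± 0.19 (adjusted p = 0.00724), with positive arrays below negative ones in both domains. For Rnd3 the steps were -0.39 and -1.29, a difference of 0.90 ± 0.17 (adjusted p = 0.0117), again with positive arrays below negative ones in both. Groups of 3 arrays were not tested for single arrays that stand apart.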

How the results depend on the processing

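Over 24 alternatives (23 for the difference of differences), the Nrp2 calls, the Plxna2 calls between positive and negative cells, and the rostral calls of Sema3c and Sema5b were kept throughout. Sema3c passed the filter only through the negative cells, which favoured its lower direction. No member call changed its direction. In the counts below members are named first, then the co-receptor and ligand list, then the cytoplasmic list. With the replicate block R+ against R- gave 3 members higher, 2 co-receptor genes lower and 4 cytoplasmic genes higher. C+ against C- gave 4 members and 3 cytoplasmic genes higher. R+ against C+ gave 2 members higher, 1 co-receptor gene higher and 2 lower, and 5 cytoplasmic genes higher. R- against C- gave 4 members lower, 3 co-receptor genes lower, and 3 cytoplasmic genes higher and 3 lower, and the difference of differences gave 1 co-receptor gene higher. Under the block 21.8%, 10.2% and 2.65% of all genes were called in these last 3 comparisons. The block changed no other member call than those given beside the results.

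With the beta-actin covariate C+ against C- gave 3 members and 2 cytoplasmic genes higher, R+ against C+ gave 0 members, 0 co-receptor and 0 cytoplasmic genes lower, and R- against C- gave 1 member lower (Sema4g, in place of Plxna2 and Sema6d) and 0 cytoplasmic genes in either direction. Under the covariate 15.8%, 1.68% and 1.68% of all genes were called in these comparisons, in that order. For the settings that follow the share over all genes is not given. A changed count there cannot be told from a general change in calls. With the highest arithmetic mean, 2 members were higher in R+ over R- and 2 in C+ over C-, with 0 cytoplasmic genes higher in C+. With probe sets averaged, 2 members and 1 co-receptor gene were higher in R+ over R-, and 2 members and 0 co-receptor genes in C+ over C-. Among members lower in C+ against C-, Sema6d was lost and Plxna4 was gained. R+ against C+ then gave 2 members higher and 1 lower, 1 co-receptor gene higher and 0 lower, and 1 cytoplasmic gene lower. R- against C- gave 0 members, 0 co-receptor and 0 cytoplasmic genes lower, and the difference of differences 1 member higher. In this setting Dpysl4 reversed in R+ against C+ (0.054, adjusted p = 0.944), with the cause not tested.

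Without the filter 1 cytoplasmic gene was lower in R+ against R-, 1 co-receptor gene lower and 0 cytoplasmic genes higher in C+ against C-, and 1 member and 0 co-receptor genes lower in R+ against C+. Without a trend the counts were 2 co-receptor genes lower in R+ against R-, 0 cytoplasmic genes higher in C+ against C-, 1 member, 0 co-receptor genes and 1 cytoplasmic gene lower in R+ against C+, 0 in each list in R- against C-, and 0 cytoplasmic genes in the difference of differences. With 1 median per array they were 1 cytoplasmic gene lower in R+ against R-, 2 members higher in C+ against C-, 0 co-receptor genes and 1 cytoplasmic gene lower in R+ against C+, 1 member lower and 0 in each list in R- against C-, and 1 member and 0 cytoplasmic genes higher in the difference of differences. Fitting only the groups compared gave 2 members higher and 1 cytoplasmic gene lower in R+ against R-, 1 co-receptor gene lower and 0 cytoplasmic genes higher in C+ against C-, 1 member, 0 co-receptor genes and 2 cytoplasmic genes lower in R+ against C+, and 0 cytoplasmic genes in either direction in R- against C-. An offset of 1 gave 0 and quantile normalization 2 cytoplasmic genes higher in C+ against C-. Quantile normalization also ended the call of Sema3e in C+ against C- (adjusted p = 0.0624). In R+ against C+ it ended those of Sema4d (0.0718) and Rock1 (0.0784). The Sema3e call was also lost without the filter, with 1 median per array and in the fit of only the groups compared. Plxna3 in R+ against C+ was lost with 1 median per array (adjusted p = 0.104). Not every changed count is listed in this section.

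Leaving out each array in turn, or replicate 1 of all groups, a setting chosen after seeing the data, gave 1 to 2 members higher and 4 to 6 lower in R+ against R-, 0 to 2 and 4 to 6 in C+ against C-, 1 to 1 and 0 to 3 in R+ against C+, 0 to 0 and 1 to 3 in R- against C-, and 2 to 2 and 0 to 0 in the difference of differences. For co-receptor genes the ranges were 2 to 2 and 1 to 2, 0 to 1 and 1 to 3, 0 to 1 and 0 to 1, 0 to 0 and 0 to 1, and 0 to 0 and 0 to 0, and for cytoplasmic genes 0 to 1 and 1 to 2, 0 to 1 and 2 to 3, 1 to 5 and 0 to 5, 0 to 1 and 0 to 1, and 1 to 2 and 0 to 0. Plxna4, Plxnb3 and Plxnd1 lie near the array-wide median, where signal over background limits any call. Sema3g lies near it only in the negative cells. At 12 to 38 in R+ and 15 to 29 in C+ its signal was close to the offset of 10. Its rostral difference ranged from -2.78 to -1.49 over the alternatives.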
